A study of Pinctada fucata with 3 samples.

Results

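The oyster shell is secreted by the mantle, whose RNA is dominated by a small set of very abundant transcripts. Described here are the most abundant mantle transcripts of the pearl oyster Pinctada fucata whose level stayed within a narrow range whichever double-stranded RNA (dsRNA) had been injected. All genes were ranked by their mean FPKM (fragments mapped per kilobase of a transcript and per 1000000 fragments in the library) over 3 libraries, the 150 highest were taken, and those whose largest value was less than 2 times the smallest were kept. This left 80 of the 150 genes, out of 33072 in all. They are called steady below, by this rule only: members were chosen by the same FPKM values that are reported, so these are given as a description, with no test.

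There was 1 library for each dsRNA, and all came from mantle of healthy adult oysters. The groups were Pf-Rel dsRNA, poI-kappaB dsRNA (called IκB below) and GFP dsRNA, the control, aimed at green fluorescent protein, which oysters lack. In every group 30 μg was injected into the adductor muscle of each of 5 oysters and mantle was sampled after 7 days, per the labels' protocols. All groups, the control included, therefore received an injection and a dsRNA. That the mantle pieces of a group were pooled is implied by the single library and not stated, so differences among oysters are hidden and no value below has a replicate error.

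As background, Rel belongs to the NF-κB family of transcription factors and IκB holds such factors in the cytoplasm until a signal leads to its breakdown. Removing either transcript by RNA interference, which dsRNA triggers, would thus push the pathway in opposite directions. The most abundant transcripts of a molluscan mantle are commonly those of shell matrix proteins, which the outer epithelium secretes to build the prismatic and nacreous shell layers, together with those of ribosomal and cytoskeletal proteins that most cells need. The deposited file does not pair its identifiers with gene names, so which member belongs to which of these kinds is not given here, and neither the mantle markers nor the targeted transcripts were examined. In bulk tissue, fewer cells of a type and less RNA per cell cannot be told apart.

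FPKM summed to 1166698 with GFP, 1006661 with Rel and 1126540 with IκB dsRNA. Relative depth was estimated from the most frequent ratio between low values of the same gene. It was 1.18 times the control for the Rel dsRNA library and 1.17 times for the IκB dsRNA library. Only 84 of 6146 and 84 of 6412 low genes lay at that ratio, so the estimate is rough. The number of reads is unknown. The totals matter to what follows, because the FPKM scale leaves the Rel dsRNA library at 0.863 times the GFP dsRNA total. On a TPM scale, where each library is brought to the same sum, every log2 ratio of Rel over GFP is 0.21 higher and every log2 ratio of IκB over Rel is 0.16 lower.

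The steady genes carried a large part of the mantle transcriptome. Their FPKM made up 36.5% of the GFP dsRNA library, 36.5% of the Rel dsRNA library and 42.5% of the IκB dsRNA library. The 70 other genes of the top 150 made up 22.4%, 17.5% and 17.0% in the same order. The share of the steady genes was thus alike with GFP and Rel dsRNA and larger with IκB dsRNA. The share of the other abundant genes was largest with GFP dsRNA. The fold limit itself separates these sets, and 43 of the 70 others were highest with GFP dsRNA. Nothing is therefore read from the contrast between the sets. The shares do not change with the scaling of the libraries. The 10 highest members alone held 11.7% of all FPKM with GFP, 12.9% with Rel and 14.9% with IκB dsRNA.

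**Figure D1:**
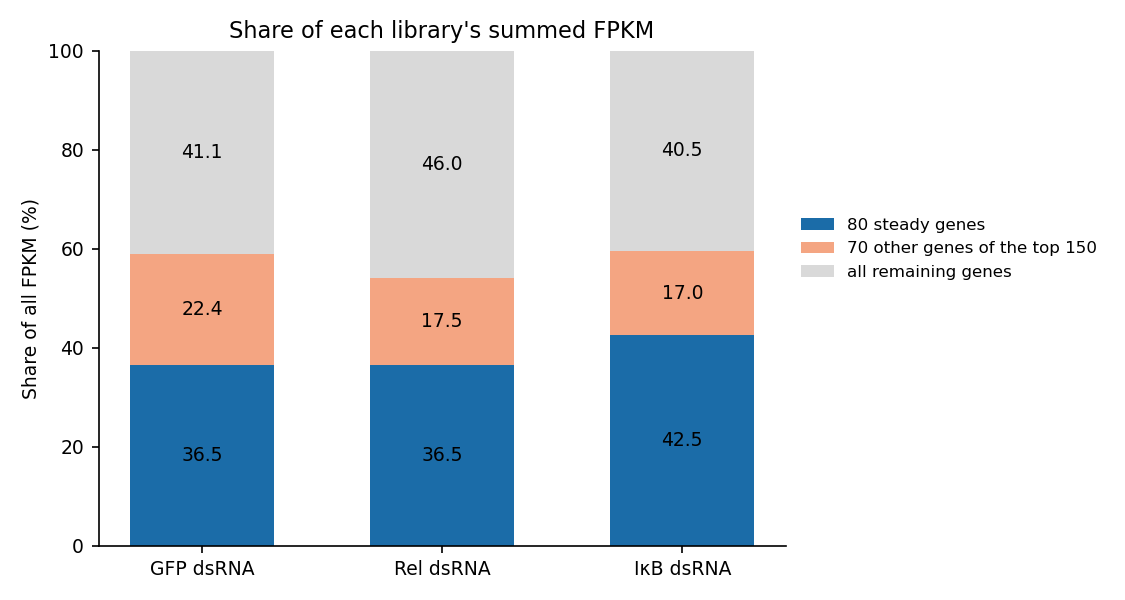
Share of the summed FPKM of each library (%, vertical axis) held by the 80 steady genes, the 70 other genes of the 150 most abundant and all remaining genes, 1 bar per library. The steady genes held 36.5%, 36.5% and 42.5% with GFP, Rel and IκB dsRNA, and the 70 others 22.4%, 17.5% and 17.0%.

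In absolute FPKM the steady genes summed to 425964 with GFP, 367009 with Rel and 478953 with IκB dsRNA. The sum with Rel dsRNA was 0.862 times that with GFP dsRNA, close to the 0.863 of the library totals. With IκB dsRNA it was 1.12 times that with GFP dsRNA, although the library total was 0.966 times. Between the knockdown libraries the steady genes differed by 111944 FPKM, and the library totals by 119879 FPKM. The 70 other abundant genes differed by 14863 FPKM between the same libraries, and all genes below rank 150 by -6928 FPKM, lower with IκB dsRNA. On the FPKM scale, the net excess of the IκB dsRNA library over the Rel dsRNA library therefore lay mostly in these 80 genes. On the TPM scale the library totals are equal, so there is no net excess to divide. The share of the 80 genes is the same on that scale, at 42.5% with IκB against 36.5% with Rel dsRNA.

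Ranks 1 to 5 were all held by steady genes. The gene of highest mean, pfu_aug2.0_122.1_06978, stood at 26938 FPKM with GFP, 15156 with Rel and 22500 with IκB dsRNA. It was the most abundant transcript of the GFP and IκB dsRNA libraries and only the fourth of the Rel dsRNA library, and its values spanned 1.78-fold. The second, pfu_aug2.0_37.1_23311, was at 22181, 17272 and 15981 FPKM in the same order. It was lower in both knockdown libraries, within 1.39-fold. The third, BGI_novel_G000590, was at 12360, 17386 and 21478 FPKM and led the Rel dsRNA library. Its values were higher with both dsRNAs than with GFP dsRNA, the reverse of the second gene.

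BGI_novel_G003784 was at 16578 FPKM with GFP, 13407 with Rel and 17047 with IκB dsRNA, a span of 1.27-fold. Among the 12 highest members it had the narrowest range. The fifth gene, pfu_aug2.0_550.1_00879, was at 11615, 15601 and 18349 FPKM. It shared its order of libraries (GFP lowest, Rel between, IκB highest) with 5 more of these 12 members. One was pfu_aug2.0_368.1_27304, at 9476, 10106 and 16495 FPKM, where the IκB dsRNA library stood apart from 2 nearly equal values. Another was pfu_aug2.0_205.1_17115, at 9322, 11236 and 14375 FPKM, which climbed in more even steps.

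BGI_novel_G011797 was at 9090 FPKM with GFP, 10255 with Rel and 15369 with IκB dsRNA. Likewise pfu_aug2.0_1903.1_11929 was at 8144, 9699 and 12706 FPKM. Both were highest with IκB dsRNA. The remaining 3 of the 12 were lowest with Rel dsRNA and highest with IκB dsRNA. These were pfu_aug2.0_1955.1_18611 at 10254, 9975 and 13787 FPKM, pfu_aug2.0_5611.1_06144 at 8924, 7765 and 13385 FPKM, and pfu_aug2.0_64.1_13512 at 8889, 7895 and 10636 FPKM. In all, the IκB dsRNA library held the highest value in 10 of these 12 members and the GFP dsRNA library in the other 2.

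**Figure D2:**
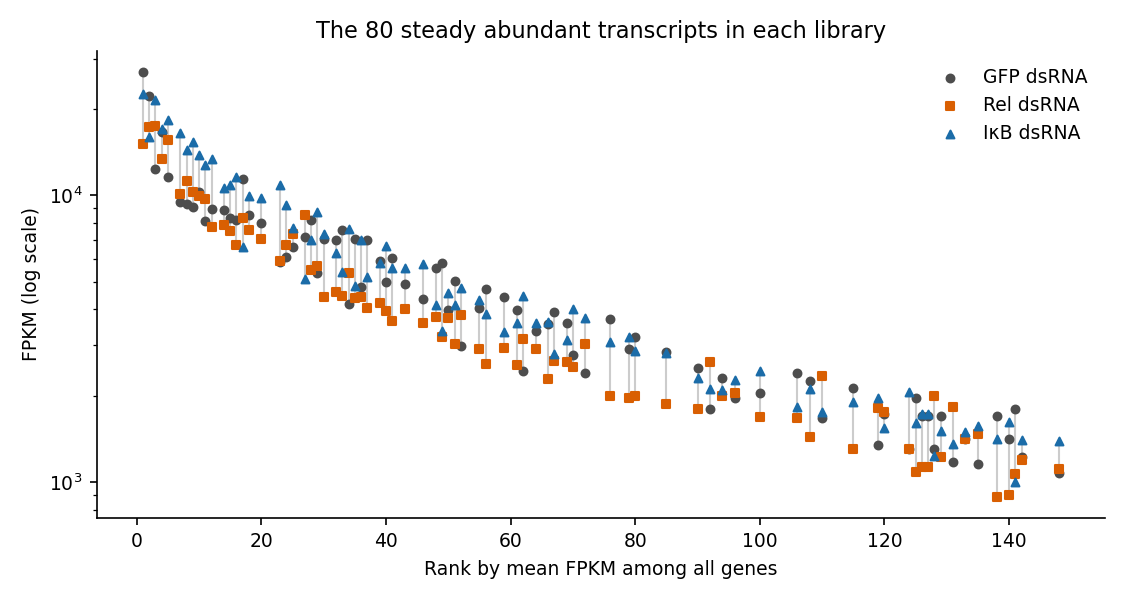
FPKM (log scale, vertical axis) of the 80 steady genes in each library against their rank by mean FPKM, with grey lines joining the 3 values of a gene. Means run from 21531 down to 1189 FPKM, and the IκB dsRNA values lie at the top of most of the highest members.

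Over all 80 members the mean FPKM ran from 1189 to 21531 with a median of 3798, against a median of 2161 for the 70 others. The lowest single value of any member was 888 FPKM. Of the 50 genes of highest rank, 38 were steady, compared with 22 of the next 50 and 20 of the 50 after these. Below the top 150 the counts were 21, 13 and 19 of each further 50 genes. By this ranking steady genes were most frequent in ranks 1 to 50, whose members held 27.7% of the FPKM of the GFP dsRNA library. The mean used for the ranking comes from the same values as the fold limit. A gene high in only 1 library can thus enter the list by its mean without being steady. Ranking by the smallest value instead gave 100 members, against 80. Nothing is therefore read from the change of these counts with rank.

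The background for these counts is the share of all genes that meet the same limit. Of the 20728 tested genes, those whose mean reached 1 FPKM, 37.3% had a largest value below 2 times the smallest, against 53.3% of the 150 most abundant. The rule used this very measure, so nothing is read from that difference. The share also varied with level without following it in one direction. Genes with a mean of 1 to 2 FPKM were steady in 23.8%, those of 20 to 50 FPKM in 49.3%, those of 500 to 1000 FPKM in 35.5% and those from 1000 FPKM upwards in 51.2%. Low values carry more counting error, whose part in the lower share at 1 to 2 FPKM was not tested.

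**Figure D3:**
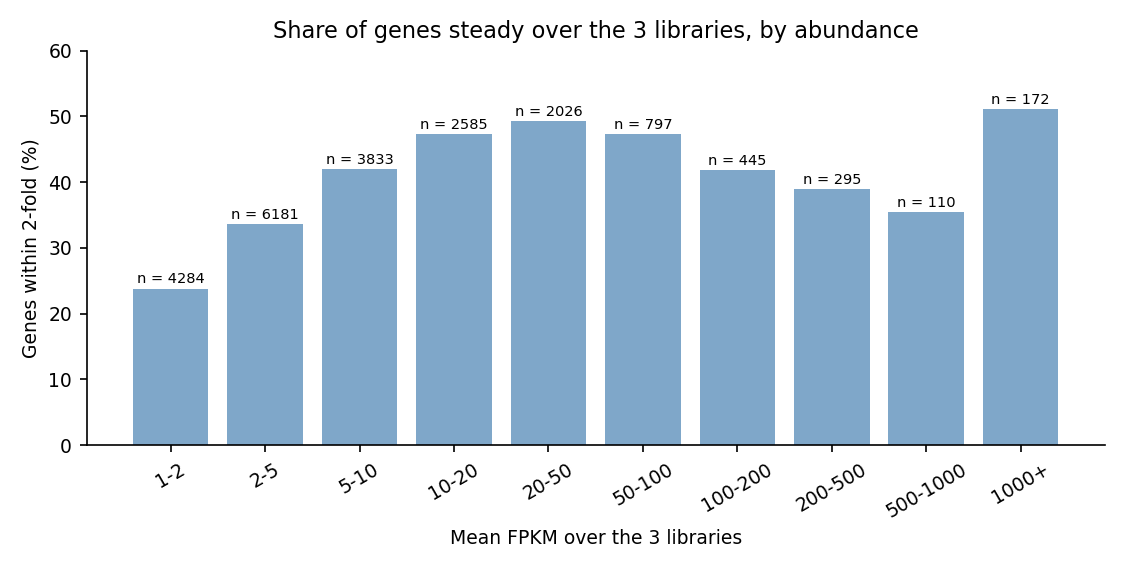
Share of genes whose largest FPKM was below 2 times the smallest (%, vertical axis) in bins of mean FPKM over the 3 libraries, with the number of genes above each bar. The bars stand at 23.8% in the lowest bin, 49.3% for 20 to 50 FPKM, 35.5% for 500 to 1000 FPKM and 51.2% in the highest bin.

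Within the limit of the rule, most members were not constant. The ratio of largest to smallest value ran from 1.06 to 1.91 with a median of 1.56. It was below 1.1 in 1 member, below 1.2 in 6 and below 1.5 in 31. On the TPM scale the ratio was below 1.5 in 47 members, with a median of 1.43. When each library was divided by the sum of its own members, 53 were below 1.5 and the median was 1.39. Dividing by the members' own sum removes a shift common to them, so a smaller span is partly built into that last count.

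The steadiest member was BGI_novel_G009072, at 1413 FPKM with GFP, 1409 with Rel and 1490 with IκB dsRNA, a span of 1.06-fold. Next came pfu_aug2.0_176.1_20365, at 1728, 1758 and 1543 FPKM and a span of 1.14-fold. The first was slightly highest with IκB dsRNA and the second slightly lowest there. BGI_novel_G006338 was at 2301, 1987 and 2098 FPKM, and pfu_aug2.0_89.1_30190 at 1962, 2046 and 2274 FPKM. These 2 spanned 1.16-fold each and ordered the libraries differently.

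The most abundant gene among the 6 steadiest was BGI_novel_G000941, at 6603 FPKM with GFP, 7352 with Rel and 7691 with IκB dsRNA. The sixth, BGI_novel_G001481, was at 1220, 1187 and 1397 FPKM. Of these 6, BGI_novel_G000941 alone was among the 50 highest genes, and the rest had ranks of 94 to 142.

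The limit itself cut through a continuous range of values. Just inside were pfu_aug2.0_30.1_00082, at 1698 FPKM with GFP, 888 with Rel and 1406 with IκB dsRNA, and pfu_aug2.0_399.1_30726, at 5844, 5904 and 10824 FPKM. The first was lower with both dsRNAs than with GFP dsRNA, and lowest with Rel dsRNA. The second was high with IκB dsRNA alone. BGI_novel_G007026 and BGI_novel_G009999, whose values are given with the order of the libraries, came next at 1.85 and 1.83-fold. Just outside were pfu_aug2.0_1866.1_21827, at 5906, 9941 and 11948 FPKM, and BGI_novel_G000504, at 2498, 3800 and 5109 FPKM. Both were lowest with GFP dsRNA, with spans of 2.02 and 2.05-fold. By rank, the lowest member was pfu_aug2.0_600.1_00937, the 148th gene, at 1076, 1104 and 1386 FPKM. The first steady gene below the limit was pfu_aug2.0_35.1_16759, at rank 152, with 989, 1160 and 1293 FPKM, followed by pfu_aug2.0_194.1_13775 with 892, 1499 and 984 FPKM. The 70 genes outside the fold limit had a median span of 4.18-fold and reached 131-fold.

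**Figure D4:**
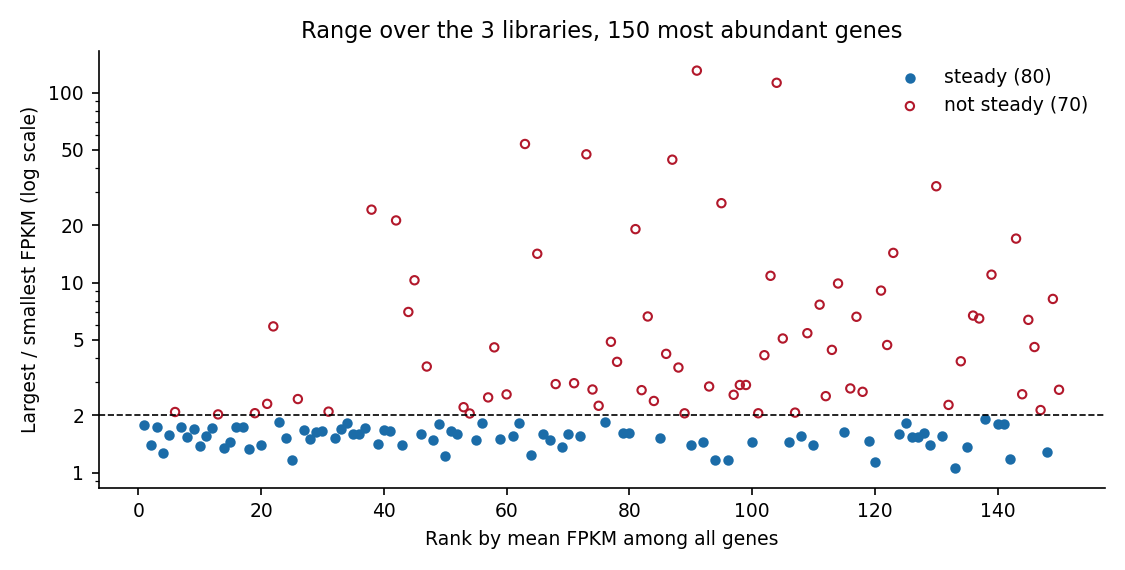
Ratio of the largest to the smallest FPKM over the 3 libraries (log scale, vertical axis) against rank for the 150 most abundant genes, with filled points for the 80 steady genes, open points for the 70 others and a dashed line at 2. Ratios of the steady genes run from 1.06 to 1.91, and those of the others reach 131.

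Most members had a high rank in each library, which a high mean and the limit of 2-fold largely ensure. Of the 80, 72 were among the 150 highest genes of every library, and 55 among the 100 highest of every library. In all, 103 genes were among the 150 highest of every library, of which 31 were not steady by the rule. Of the 10 highest genes of a library, 7 were members with GFP, 8 with Rel and 9 with IκB dsRNA. Across the 80 members, which are not independent and whose values the rule holds close, log2 FPKM correlated at r = 0.92 between Rel and GFP, 0.93 between IκB and GFP and 0.96 between IκB and Rel dsRNA.

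Small differences within the members went mostly one way for the Rel and the IκB dsRNA libraries. The Rel dsRNA library held the lowest value in 53 of the 80 members and the highest in 6. The IκB dsRNA library held the highest value in 44 and the lowest in 6, and the GFP dsRNA library the highest in 30 and the lowest in 21. Among all 20728 tested genes, Rel dsRNA was lowest in 29.6% and IκB dsRNA highest in 27.0%, against 66.3% and 55.0% of the members. Of the 7730 tested genes within the same 2-fold limit, Rel dsRNA was lowest in 31.9% and highest in 33.4%. In those genes IκB dsRNA was highest in 27.4% and lowest in 34.5%, and GFP dsRNA highest in 39.2% and lowest in 33.6%. The GFP dsRNA library was highest in 40.5% of tested genes, near its 37.5% of members, and lowest in 40.5%, against 26.3% of members. Rel dsRNA was highest in 32.5% and IκB dsRNA lowest in 29.9% of tested genes, against 7.5% of members each. Part of this lay in the scale: with TPM, Rel dsRNA was lowest in 35 members and GFP dsRNA in 33, while IκB dsRNA was still highest in 41. Median-ratio and upper-quartile scaling left Rel dsRNA lowest in 57 and 49 members. Rel dsRNA was also the lowest library in 39 of the 70 other abundant genes, but there IκB dsRNA was highest in 13 and GFP dsRNA in 43.

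**Figure D5:**
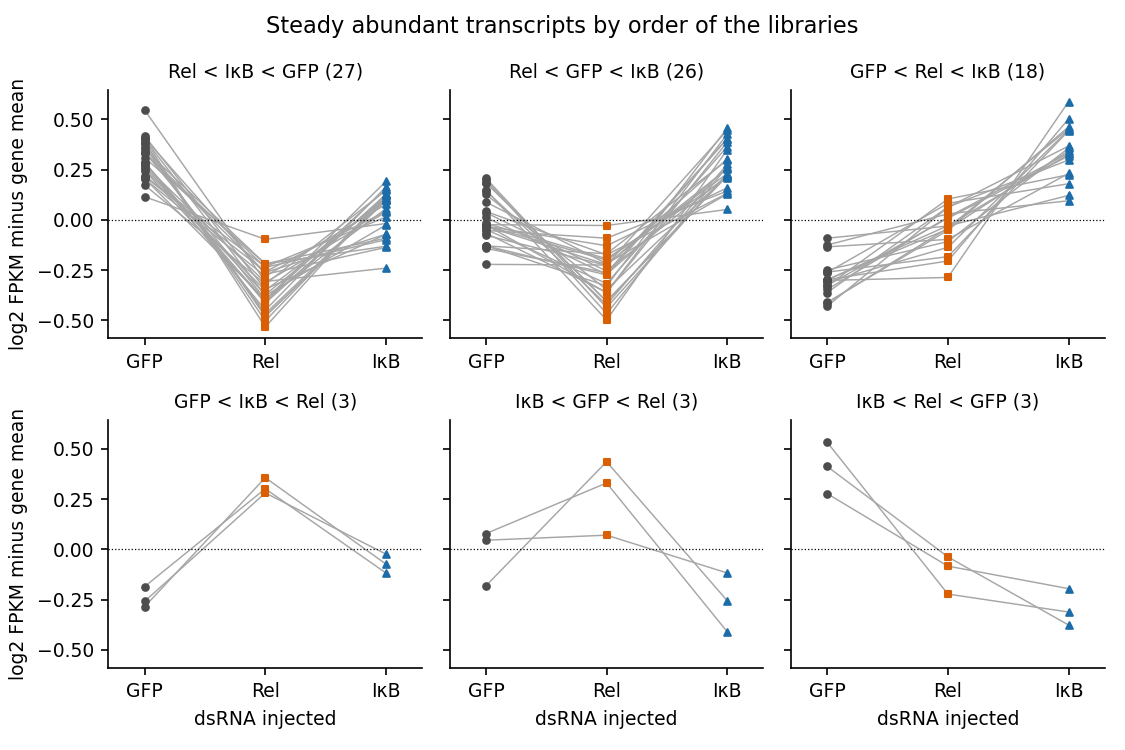
log2 FPKM of each steady gene minus the gene's own mean over the 3 libraries (vertical axis), with 1 panel for each order of the libraries from lowest to highest, the number of genes in brackets and 1 line per gene. The panels with Rel dsRNA lowest hold 27 and 26 genes, the panel with GFP lowest and IκB highest holds 18, and the rest hold 3 each.

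By the order of the libraries, 3 patterns held 71 of the members. In 27 members the order was Rel below IκB below GFP dsRNA, with medians of 3986 FPKM for GFP, 2622 for Rel and 3338 for IκB. This order was found in 21.1% of all tested genes and in 37 of the 70 other abundant genes. It held BGI_novel_G007026, at 3687 FPKM with GFP, 1998 with Rel and 3079 with IκB dsRNA, and the highest member of all, pfu_aug2.0_122.1_06978. In 26 members the order was Rel below GFP below IκB dsRNA, with medians of 4184 FPKM for GFP, 3659 for Rel and 5060 for IκB. Of all tested genes 8.50% had that order, the rarest of the 6, and so did 2 of the 70 other abundant genes. The fold limit removes genes in which GFP dsRNA stands far from both others, and its part in this share was not tested. The other order with GFP in the middle, IκB below GFP below Rel dsRNA, made up 3.75% of members against 10.6% of tested genes. Nothing is read from these differences in shares. An example of the order Rel below GFP below IκB dsRNA was BGI_novel_G007154, at 1407, 898 and 1615 FPKM. In 18 members GFP was lowest and IκB highest, with medians of 5597, 5774 and 8202 FPKM, and these included BGI_novel_G009999, at 4170, 5349 and 7641 FPKM. That order made up 22.5% of the members, near its 18.6% of all tested genes.

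Each of the other orders was found in 3 members, or 3.75%. Of all tested genes, 21.9% had GFP lowest and Rel highest, 10.6% had IκB lowest and Rel highest, and 19.3% had IκB lowest and GFP highest. GFP was lowest and Rel highest in BGI_novel_G012032, at 1168 FPKM with GFP, 1823 with Rel and 1352 with IκB dsRNA. IκB was lowest and Rel highest in pfu_aug2.0_1691.1_05184, at 1300, 1995 and 1235 FPKM, and in pfu_aug2.0_35.1_16756, at 7150, 8515 and 5096 FPKM. IκB was lowest and GFP highest in pfu_aug2.0_622.1_07742, at 1798, 1065 and 1001 FPKM, and in pfu_aug2.0_7134.1_16243, at 11400, 8346 and 6598 FPKM. Of the 6 members highest with Rel dsRNA, 1 was among the 50 genes of highest rank and 4 were in the lowest 50 of the top 150.

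Both knockdown libraries are compared with the same GFP dsRNA library, so their ratios share that library. With Rel dsRNA the median log2 ratio of FPKM + 1 over the members was -0.29, and 24 members lay above GFP dsRNA and 56 below. The median of all tested genes was 0.01. At least 1.5-fold lower were 24 members, 30.0%, against 28.3% of all tested genes. At least 1.5-fold higher were 2 members (2.5%), BGI_novel_G012032 and pfu_aug2.0_1691.1_05184, against 30.5%. On the TPM scale the counts were 6 lower and 7 higher with a median of -0.07, so the balance of lower over higher members turned there. It did not turn with median-ratio scaling, at 29 lower and 0 higher, or with upper-quartile scaling, at 14 lower and 3 higher. The members furthest below GFP dsRNA were pfu_aug2.0_30.1_00082, at a log2 ratio of -0.93, and BGI_novel_G007026, at -0.88. The rule holds every ratio within 2-fold and thereby limits these counts.

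With IκB dsRNA the median log2 ratio over the members was 0.08, with 47 members above GFP dsRNA and 33 below, and that of all tested genes was -0.03. The members' median was 0.13 on the TPM scale and 0.21 with upper-quartile scaling. At least 1.5-fold higher were 14 members, 17.5%, against 28.0% of all tested genes. At least 1.5-fold lower were 3 members, 3.75%, against 29.1%. On the TPM scale these counts were 17 and 3. The 2-fold limit of the rule keeps both counts down here too. The members furthest above were pfu_aug2.0_399.1_30726, at a log2 ratio of 0.89, and BGI_novel_G009999, at 0.87. Furthest below were pfu_aug2.0_622.1_07742, at -0.84, and pfu_aug2.0_7134.1_16243, at -0.79.

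Relative to the control, 21 members were higher with both dsRNAs, 30 lower with both, 26 lower with Rel and higher with IκB dsRNA, and 3 the reverse. Of all tested genes 39.3% were higher with both, 40.4% lower with both, 8.45% lower with Rel and higher with IκB dsRNA, and 10.6% the reverse. The 37.5% of members lower with both is thus near the background. The fold limit removes genes in which GFP dsRNA stands far from both others, and so works on the members' shares by itself. Beyond that limit no size threshold enters these 4 counts. With 1 library per group, a difference of a few percent is not shown to be more than the spread between libraries.

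In the direct comparison, IκB dsRNA was higher than Rel dsRNA in 71 of the 80 members. The median log2 ratio was 0.44, against -0.03 over all tested genes and 0.31 over the 70 other abundant genes. It was 0.28 on the TPM scale. At least 1.5-fold higher with IκB dsRNA were 20 members, 25.0%, against 16.8% of all tested genes. At least 1.5-fold lower were 2 members, 2.5%, against 19.3%. On the TPM scale these were 5 and 3, and with median-ratio scaling 31 and 2. The members furthest apart were pfu_aug2.0_399.1_30726, at a log2 ratio of 0.87, BGI_novel_G007154, at 0.85, and, in the other direction, pfu_aug2.0_35.1_16756, at -0.74, and pfu_aug2.0_1691.1_05184, at -0.69. Only the last 2 members lay at least 1.5-fold below their Rel dsRNA value.

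The rule bounds the ratio of every pair of libraries, so the sizes of the ratios are given as values, with nothing read from their comparison with other genes. The median absolute log2 ratio of IκB over Rel dsRNA was 0.46 in the members, 0.47 in the 70 other abundant genes and 0.41 in all tested genes. Over GFP dsRNA it was 0.44 for Rel and 0.28 for IκB dsRNA in the members, and 1.87 and 1.51 in the 70 others. With TPM the values for IκB over Rel dsRNA were 0.32 in the members, 0.43 in the 70 others and 0.43 in all tested genes, and with median-ratio scaling they were 0.54, 0.53 and 0.41.

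The closest pair of libraries was counted for each member. In 19 members, 23.8%, the closest pair was IκB and Rel dsRNA, in 33 it was IκB and GFP dsRNA and in 28 Rel and GFP dsRNA. Of all tested genes 52.4% had the knockdown libraries as the closest pair, of the 7730 tested genes that met the same 2-fold limit 40.4%, and of the 70 other abundant genes 82.9%. Under the TPM scale the knockdown libraries were closest in 26 members, and with median-ratio and upper-quartile scaling in 15 and 18. The limit on fold removes genes in which GFP dsRNA stands far from both others, and so works on this count by itself.

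By rank, the sum of the members with IκB dsRNA stood furthest above GFP dsRNA in the first 50 ranks and was above Rel dsRNA in each set of 50. The 38 members of ranks 1 to 50 summed to 323465 FPKM with GFP, 284154 with Rel and 374351 with IκB dsRNA, and IκB dsRNA was highest in 25 of them. The 22 members of ranks 51 to 100 summed to 70422, 54862 and 72427 FPKM, and IκB dsRNA was highest in 10. In the 20 members of the lowest 50 ranks the sums were 32077, 27992 and 32175 FPKM, and IκB dsRNA was highest in 9. Relative to GFP dsRNA, the IκB dsRNA sum was 1.16 times in the first set, 1.03 times in the second and 1.00 times in the third. Relative to Rel dsRNA it was 1.32, 1.32 and 1.15 times. Among the 53 steady genes of the next 150 ranks, IκB dsRNA was highest in 19, GFP dsRNA in 21 and Rel dsRNA in 13, while Rel dsRNA was lowest in 23.

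The identifiers are the only property in the file that the rule did not use. Of the members, 46 had pfu_aug2.0 identifiers (57.5%) and 34 had BGI_novel identifiers. Of the 70 other abundant genes 42.9% had pfu_aug2.0 identifiers, and of all tested genes 49.0%. Within the members the median of the mean FPKM was 5241 for pfu_aug2.0 and 3011 for BGI_novel identifiers, and the median spans were 1.56 and 1.54-fold. IκB dsRNA was highest in 23 of the former and 21 of the latter. These are counts without a test.

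Some members had abundant genes next to them by identifier number. All 80 members had a listed gene within 3 numbers. In 8 of them (10%) such a gene was itself among the 150 most abundant, compared with 15 of the 70 other abundant genes (21.4%) and 2.46% of all tested genes. A gene with a mean of at least 100 FPKM stood within 3 numbers of 20 members (25.0%), of 47.1% of the 70 others and of 15.5% of all tested genes. Of the 96 genes directly adjacent to a member by number and with a mean of at least 1 FPKM, 32 (33.3%) met the 2-fold limit, against 37.4% around all tested genes. The share around the members was thus near the background.

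The member pair pfu_aug2.0_35.1_16755 and pfu_aug2.0_35.1_16756 has consecutive numbers. The former was at 1341 FPKM with GFP, 1809 with Rel and 1967 with IκB dsRNA, and so was highest where the latter was lowest. The gene just below the rank limit, pfu_aug2.0_35.1_16759, carries the same middle field of the identifier and had the same order of libraries as pfu_aug2.0_35.1_16755. Whether reads were shared between these genes was not tested.

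BGI_novel_G008725 and BGI_novel_G008726 had identical values, 1690 FPKM with GFP, 1122 with Rel and 1730 with IκB dsRNA. They were the only members with the same 3 values as another gene, a property of 828 tested genes, and may be 1 transcript listed under 2 numbers. The steadiest member, BGI_novel_G009072, had BGI_novel_G009070 and BGI_novel_G009071 next to it by number. The former was at 1139 FPKM with GFP, 814 with Rel and 1019 with IκB dsRNA, and the latter at 1016, 784 and 1016 FPKM. All 3 genes were lowest with Rel dsRNA and within 1.40-fold.

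In other places a steady member stood beside genes that were far from steady. BGI_novel_G007026 lies between BGI_novel_G007025, at 1724 FPKM with GFP, 4718 with Rel and 2499 with IκB dsRNA, and BGI_novel_G007027, at 2684, 969 and 1613 FPKM. The first neighbour was highest and the second lowest with Rel dsRNA. Beside pfu_aug2.0_529.1_30868, a member at 4791, 4404 and 6996 FPKM, stood pfu_aug2.0_529.1_30867, at 8048, 2226 and 3314 FPKM. BGI_novel_G001481, one of the 6 steadiest, had as its neighbour BGI_novel_G001482, at 194, 163 and 1453 FPKM. In these examples, picked after their values were seen, genes adjacent by number differed widely in their span over the 3 libraries. Adjacency here is by identifier number alone.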

How the data were processed

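Mantle RNA of Pinctada fucata was sequenced in 3 libraries, 1 per dsRNA. The authors deposited 1 table of FPKM values, rounded to 2 decimals, per the file headers. HISAT, Bowtie2 and RSEM appear in the submitters' processing notes, with neither version nor role. Genome build and annotation were both not given in the sources used here. Per the labels' protocols, either mRNA was enriched with oligo(dT) beads or ribosomal RNA was depleted, and which one was done is not stated. Each of the 3 columns was assigned to its library from the column name.

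Members were found by the rule given in the report, on plain FPKM. Log2 ratios used FPKM + 1, which hardly matters at these levels. Background shares are over genes whose mean reached 1 FPKM. Relative depth was the most frequent ratio between low values (0.3 to below 3 FPKM) of the same gene. Depth in reads is unknown, so no interval or detection floor is given. No p-value was computed, since each group is a single library without replicates.

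The members and lists were chosen with earlier results of these data known. Genes named are the 12 highest members, the 6 steadiest, those nearest to either limit (not all of them are printed), those furthest apart in each pair, and neighbours by number. Genes that illustrate an order or a neighbour were picked after their values were seen. Planned marker lists were not applied, since no names were used. The alternatives were other scalings (TPM, median ratio, upper quartile), limits, rankings, filters and pseudocounts. The code of the member rule and scalings was checked on simulated libraries without noise, which does not test the rule on these data. Python 3.11.15, numpy 2.4.6, pandas 2.3.3 and matplotlib 3.10.9 were used.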

Additional observations from a re-analysis of the deposited data

Results flagged for a closer look

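The median log2 ratio of FPKM + 1 over the 80 members lay on opposite sides of GFP dsRNA for the knockdown libraries, at -0.287 with Rel dsRNA and 0.0827 with IκB dsRNA. With 1 library per group the difference was not tested. The libraries differ in their FPKM totals in the same direction for Rel dsRNA, and on the TPM scale the medians were -0.0743 and 0.133.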

How the results depend on the processing

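Of 104 values recomputed under alternatives, 85 stayed within 1.5 times (counts), 5 percentage points (shares) or 0.1 (log2 medians), and 19 did not. On the TPM scale the median log2 ratio moved to -0.0743 for Rel over GFP and to 0.28 for IκB over Rel dsRNA. With upper-quartile scaling it moved to 0.21 for IκB over GFP dsRNA. No median changed sign. With TPM, GFP dsRNA was lowest in 33 members, Rel dsRNA highest in 12 and lowest in 35, and IκB dsRNA lowest in 12. Members at least 1.5-fold higher with Rel than with GFP dsRNA then numbered 7 and lower ones 6, and 5 were at least 1.5-fold higher with IκB than with Rel dsRNA. With median-ratio scaling 0 members were at least 1.5-fold higher with Rel than with GFP dsRNA (2 as reported) and 31 higher with IκB than with Rel dsRNA. With upper-quartile scaling 14 were lower with Rel than with GFP dsRNA. A 1.5-fold limit left 31 members, holding 13.5%, 13.3% and 14.4% of all FPKM with GFP, Rel and IκB dsRNA. The share of tested genes within 2-fold was 45.2% among genes whose mean reached 5 FPKM and 48.4% for ratios of FPKM + 1. Ranking by the smallest value gave 100 members and by the geometric mean 88, and both kept all 80. The TPM scale gave 85, which also kept all 80. Median-ratio scaling gave 81 members and kept 79 of the 80, and upper-quartile scaling gave 80 and kept 78. The closest pairs, and the sums of the members as a scale, were added after the data were seen.

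No paired analysis was possible because each group has 1 library, and leaving out a replicate was not possible for the same reason. The gene lists were not run, as the identifiers have no names here. Without read counts, the counting error of each value is unknown.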
